A study of Mus musculus with 6 samples.

Results

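The 47 genes described here encode components of the transforming growth factor beta (TGF-beta) and bone morphogenetic protein (BMP) superfamily. They are the members of a list of 49 symbols that were found in a table of 12235 genes, and Gdf11 and Bambi were not analysed here. By role they are 9 ligands, 5 latency and processing proteins, 9 receptors, 9 antagonists, 9 SMADs and corepressors, and 6 response genes.

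The RNA came from podoplanin-positive cancer-associated fibroblasts (pCAFs) of 4T1 tumours, which grow from a mouse mammary carcinoma line. The hosts were BALB/c mice, with no genotype given beyond the strain. Each 8-week-old female had received 100000 of these cells in a mammary fat pad, and the labels call the line 4T1-GFP in one field and 4T1-luc in another. Sorting kept live PDPN+ cells without Ter119, CD45 or EpCAM and divided them by surface Ly6C into 3 Ly6C+ and 3 Ly6C− libraries of 3′ end mRNA. The labels do not say whether libraries came from separate or pooled animals, so the p-values measure the spread between these libraries, which may be technical. Values are the deposited normalised counts. A gene was called when its adjusted p in limma, fitted to log2(value + 1) of all tested genes, was under 0.05, and fold changes from that fit understate the change of genes with low values. Folds without that qualification are ratios of group means, and errors are SD over 3 libraries.

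TGF-beta ligands are secreted as inactive complexes, held to the matrix by latent TGF-beta binding proteins (LTBPs). Once freed they join type II and type I receptor kinases, which phosphorylate SMAD2 and SMAD3, whereas BMP receptors act on SMAD1 and SMAD5. In tumour stroma TGF-beta is best known for driving fibroblasts towards a contractile, matrix-producing state, and BMP signals and their secreted antagonists shape fibroblast identity.

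The libraries held 1176909 to 2818269 recovered reads, with the Ly6C+ libraries the deeper ones (2150531 to 2818269 against 1176909 to 1721480). Ly6c1, a gene for the sorted antigen, was at 3849, 3142 and 2316 in the Ly6C+ and 88.6, 77.4 and 65.6 in the Ly6C− libraries, in the order that the labels give. Of 8 fibroblast markers all were present. Pdgfra, Dcn, Col3a1 and Pdpn (4 of 8, against 9.41% of all tested genes) were called higher in Ly6C+ pCAFs. Col1a1, Col1a2, Thy1 and Fap did not pass. Summed levels of other cell types' markers differed between groups: pericyte and smooth muscle genes (10 in the table) came to 447 to 634 in Ly6C+ and 1204 to 2197 in Ly6C− libraries, epithelial and 4T1 genes (13) to 20.1 to 71.4 and 129.8 to 423, and endothelial genes (7 of 12) to 29.3 to 47.0 and 39.3 to 176. Macrophage genes (10 of 12) came to 112 to 345 and 44.2 to 142, and granulocyte genes (5 of 6) to 703 in Ly6C+ replicate 1 but at most 12.0 in any other library. Higd1b was at 0 in every library, Cldn5 at 0 in all Ly6C+ libraries, and Epcam at or below 2.95 throughout. Of 8 lymphocyte markers only Cd3e was in the table (88.7 to 165 against 10.5 to 19.7). Tissue digestion is a known inducer of immediate early genes, and 17 of 23 of these had a called excess in Ly6C+ pCAFs, compared with 9.41% of all tested genes. Their summed level was 54206 to 59404 against 26209 to 29570. The part of any of these in the results below was not tested. In sorted bulk RNA, fewer cells of a type and less RNA per cell cannot be told apart.

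Of 42 members with a mean value of at least 5, 21 were called, 12 higher and 9 lower in Ly6C+ pCAFs. Among all 9646 genes tested, 17.1% were called, 9.41% higher and 7.66% lower. The median log2 fold change (Ly6C+ minus Ly6C−) was 0.23 over the 42 members and −0.00070 over all genes, and the median size regardless of sign was 0.83 against 0.36. Groups did not overlap for 24 of the 42, compared with 33.1% of all genes. When libraries were given equal totals the median of all genes moved by −0.19, calls among all genes were 37.4% higher instead of 55.1%, and the members split into 11 higher and 11 lower. By role, the calls were 6 of 7 tested ligands, 4 of 5 latency and processing genes, 3 of 7 receptors, 5 of 9 antagonists, none of 9 SMADs and corepressors, and 3 of 5 response genes.

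**Figure D1:**
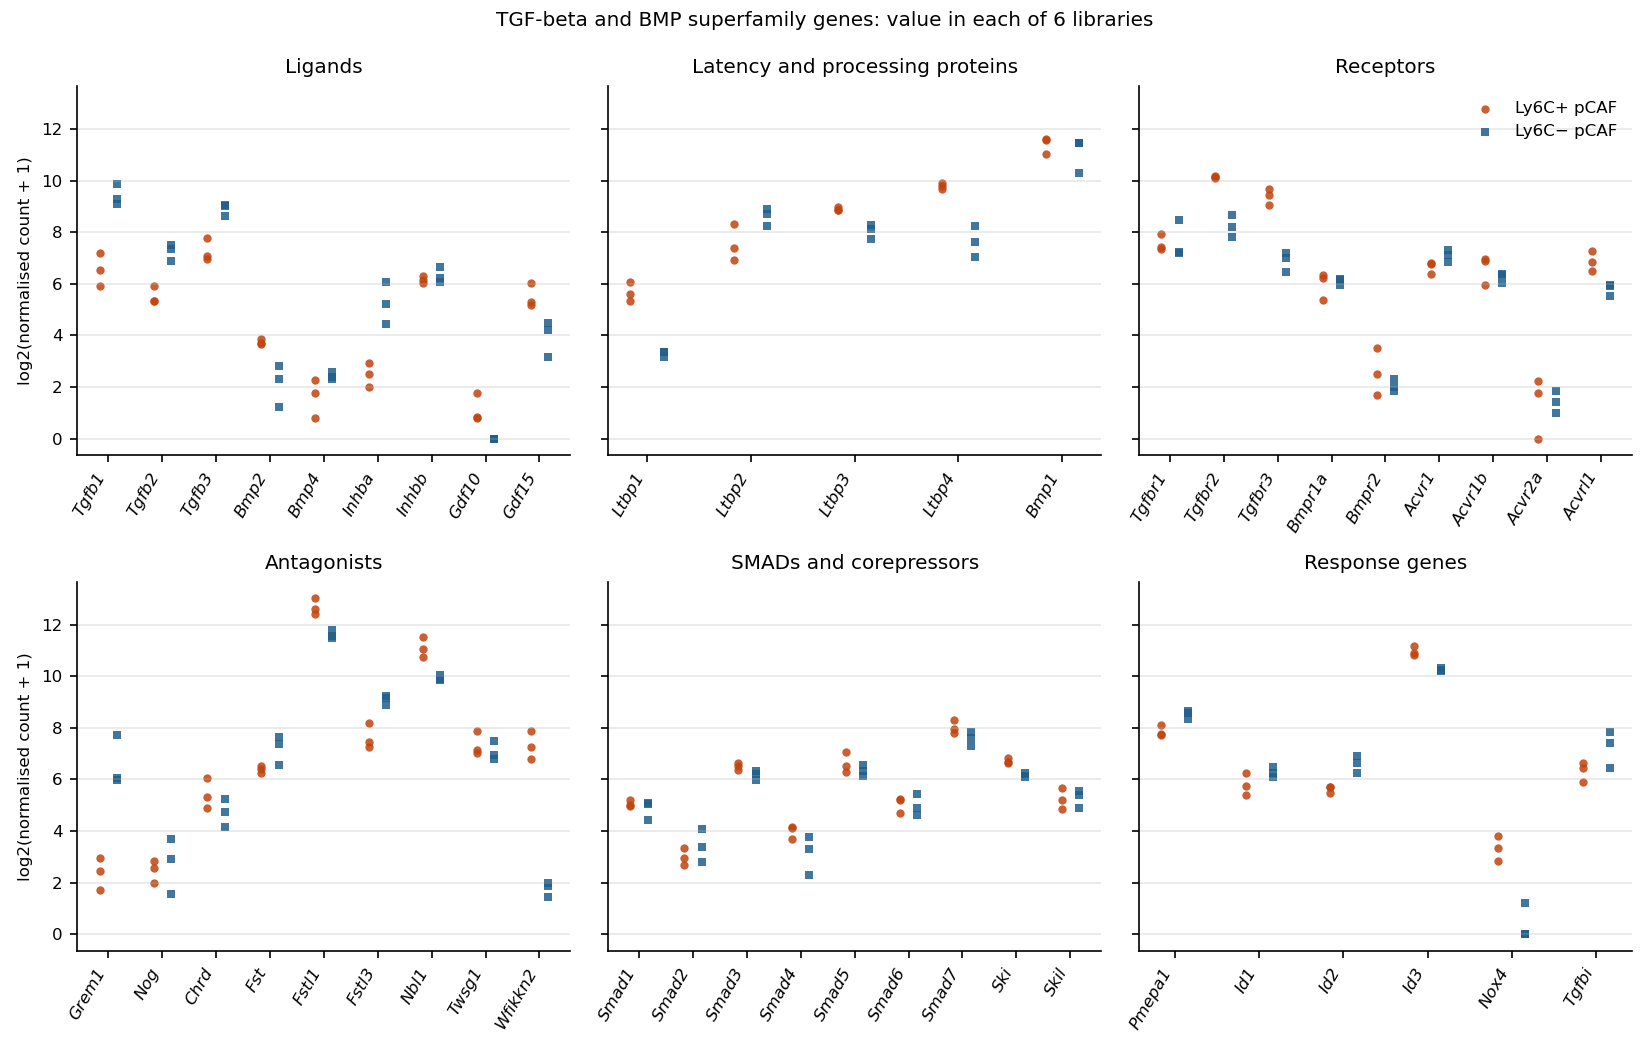
Value of each of the 47 genes in each of 6 libraries, as log2(normalised count + 1), in 1 panel per role. Circles are Ly6C+ and squares Ly6C− libraries. The 3 TGF-beta ligands sit lower, and Tgfbr2, Tgfbr3 and Ltbp4 higher, in every Ly6C+ library than in any Ly6C− library.

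All 3 TGF-beta ligand genes were lower in Ly6C+ pCAFs. Tgfb1 (chromosome 7, 25687002 to 25705077, plus strand, mm10), which encodes the isoform most studied in fibroblast activation, stood at 143, 91.0 and 59.5 in the Ly6C+ libraries and at 615, 934 and 538 in the Ly6C− libraries. That is 97.9 ± 42.4 against 696 ± 210 (log2 fold change −2.86, SE 0.30; limma adjusted p = 6.73e-05). Tgfb2 was at 39.6, 39.1 and 58.7 against 116, 161 and 178, 3.31-fold higher in Ly6C− pCAFs (−1.71, SE 0.24; adjusted p = 0.000468). For Tgfb3 the values were 135, 216 and 122 against 396, 530 and 510 (−1.63, SE 0.23; adjusted p = 0.000509). In each of the 3 genes the highest Ly6C+ value lay below the lowest Ly6C− value, and each was called in all 21 alternative analyses.

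Inhba, whose product dimerises to form activin A, was also lower in Ly6C+ pCAFs, at 6.71, 3.01 and 4.64 against 20.7, 36.6 and 66.9. The group means differed 8.65-fold on 21 and 115 reads (log2 fold change −2.77, SE 0.44; limma adjusted p = 0.00114). Its relative Inhbb, the subunit of activin B, was at 69.5, 64.6 and 77.3 against 65.9, 74.0 and 99.6. Those groups overlapped and the gene did not pass (−0.16, SE 0.21; adjusted p = 0.69). The difference between the 2 subunit genes was not tested.

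Bmp2 and Gdf15 went the other way. Bmp2, a BMP ligand, had values of 13.4, 12.0 and 11.6 against 3.94, 5.95 and 1.31, on 53 and 12 reads (log2 fold change 1.63, SE 0.48; limma adjusted p = 0.0374). The groups did not overlap, but the call ended without any 1 of the Ly6C+ libraries or without Ly6C− replicate 3 (adjusted p = 0.133, 0.113, 0.0942 and 0.0602), with equal library totals (0.0564) and in DESeq2 (0.106). Gdf15, a stress-induced divergent member of the family, was at 35.4, 64.6 and 38.6 against 17.7, 21.3 and 7.87, 2.96-fold higher in Ly6C+ pCAFs (1.56, SE 0.37; adjusted p = 0.0142). Its call ended without Ly6C+ replicate 2 (adjusted p = 0.0761). Bmp4 and Gdf10 were below the level tested: Bmp4 was at 0.752 to 3.86 against 3.93 to 4.92, and Gdf10 rested on 6 reads in Ly6C+ and 0 in Ly6C− pCAFs. Setting the whole Ly6C− group at a floor of 3 reads gave a Gdf10 ratio of 1.39. That ratio takes the 6 reads as exact and is not a lower limit. The groups of each did not overlap, and without the filter on low values neither passed (limma adjusted p = 0.335 and 0.151).

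Receptor genes were called in 1 direction, higher in Ly6C+ pCAFs. Tgfbr2, the type II receptor that binds TGF-beta and starts signalling (chromosome 9, 116084293 to 116175360, minus strand), stood at 1148, 1094 and 1118 against 223, 291 and 405. Its Ly6C+ values varied little, 1119.9 ± 27.1, and lay 3.65-fold above 306 ± 91.8 (log2 fold change 1.91, SE 0.21; limma adjusted p = 8.50e-05). Tgfbr3, which encodes betaglycan, a co-receptor that presents TGF-beta2 in particular, was at 533, 686 and 814 against 145, 86.8 and 126, 5.69-fold higher (2.51, SE 0.23; adjusted p = 2.39e-05). Neither gene's groups overlapped. Acvrl1, the type I receptor ALK1 known from endothelium, was at 153, 114 and 88.9 against 60.04, 60.4 and 44.6 (1.07, SE 0.24; adjusted p = 0.00918). Of the endothelial markers tested in the same libraries, Tek was higher and Kdr, Egfl7 and Esam were lower in Ly6C+ pCAFs, and their part in the Acvrl1 difference was not tested.

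The other receptors did not pass. Tgfbr1, the type I partner of Tgfbr2, was at 160.4, 241 and 172 against 349, 149.7 and 147 (log2 fold change −0.07, SE 0.31; limma adjusted p = 0.919). Ly6C− replicate 1 stood apart from the others of its group there, and without it the value was 0.34 (adjusted p = 0.363). Bmpr1a and the activin receptor gene Acvr1b had values that overlapped between groups (−0.09 and 0.35), while Acvr1 was lower in each Ly6C+ library without passing (82.3, 107 and 111 against 156, 115 and 136; adjusted p = 0.176). None of the 7 was called lower, nor did any have a lower value at an unadjusted p under 0.05. edgeR and DESeq2 called the same numbers, 3 higher and 0 lower. Of all tested genes limma called 9.41% higher and 7.66% lower. The type II receptor genes Bmpr2 and Acvr2a, at no more than 10.4 and 3.76 in any library, were not tested.

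**Figure D2:**
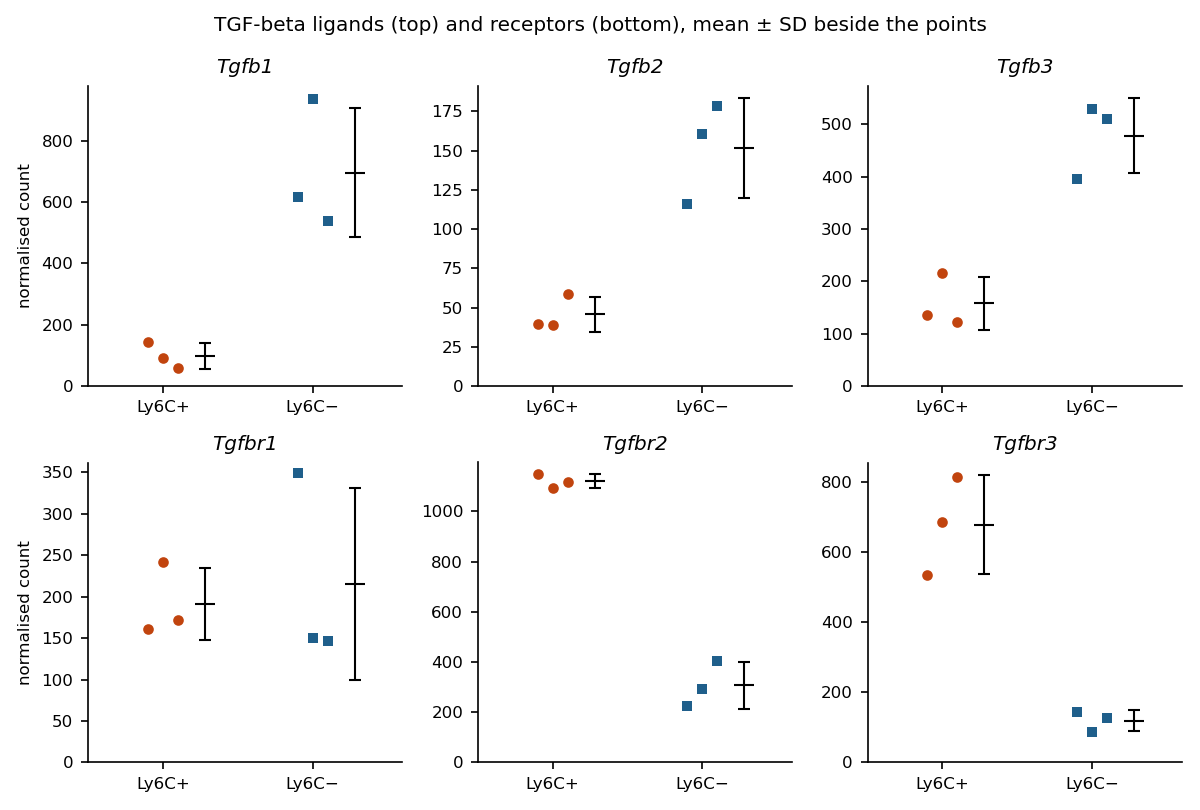
Normalised counts (linear axes from 0) of the 3 TGF-beta ligand genes and 3 receptor genes, with 1 point per library and the group mean ± SD beside the points. Ligand points are lower and Tgfbr2 and Tgfbr3 points higher in Ly6C+ pCAFs, with no overlap, and the Tgfbr1 points overlap.

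Promoter sequences are printed for 2 ligand genes that were lower, the receptor gene Tgfbr2 that was higher, and Grem1, the antagonist with the most negative fold change. Each is the 250 bases before the RefSeq transcript start, on the gene's strand (GRCm38.p6): chr7:25686752-25687001 on the plus strand for Tgfb1, and on the minus strand chr1:186705990-186706239 for Tgfb2, chr9:116175364-116175613 for Tgfbr2 and chr2:113758649-113758898 for Grem1. Capitals mark CAGAC or its reverse complement GTCTG, the core of the SMAD box, and GGCGCC, a site known from BMP-responsive genes, both searched on both strands.
Tgfb1: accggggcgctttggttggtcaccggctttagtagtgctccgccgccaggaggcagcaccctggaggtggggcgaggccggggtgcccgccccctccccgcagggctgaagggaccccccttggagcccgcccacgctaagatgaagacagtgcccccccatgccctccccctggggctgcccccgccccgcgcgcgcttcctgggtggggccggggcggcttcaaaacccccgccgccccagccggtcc
Tgfb2: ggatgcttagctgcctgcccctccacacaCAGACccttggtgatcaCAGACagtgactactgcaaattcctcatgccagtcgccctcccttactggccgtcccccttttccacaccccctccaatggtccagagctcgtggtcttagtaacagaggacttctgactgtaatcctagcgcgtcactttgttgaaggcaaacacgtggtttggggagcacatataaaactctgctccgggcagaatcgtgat
Tgfbr2: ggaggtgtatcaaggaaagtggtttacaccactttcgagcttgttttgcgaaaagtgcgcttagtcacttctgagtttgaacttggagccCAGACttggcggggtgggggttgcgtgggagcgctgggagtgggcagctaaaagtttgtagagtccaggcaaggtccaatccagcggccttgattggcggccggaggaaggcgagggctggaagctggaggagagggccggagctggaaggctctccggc
Grem1: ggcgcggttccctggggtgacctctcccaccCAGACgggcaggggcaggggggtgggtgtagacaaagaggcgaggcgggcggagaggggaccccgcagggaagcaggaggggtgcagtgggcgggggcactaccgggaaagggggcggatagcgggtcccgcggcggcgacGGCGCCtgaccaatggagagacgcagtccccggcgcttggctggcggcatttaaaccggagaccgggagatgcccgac
Tgfb1 held neither motif, Tgfb2 had CAGAC or GTCTG 2 times, Tgfbr2 had it 1 time, and Grem1 had 1 of each, without overlap between them. Among 32851 RefSeq promoter windows of this length, 42.2% held CAGAC or GTCTG and 9.59% held GGCGCC. RefSeq windows were matched for 34 of the 47 members (41 windows), of which 18 held CAGAC or GTCTG and 12 held GGCGCC. Windows of the same gene can overlap, and 1 GGCGCC site of Ltbp4 was counted in 2 windows. Other windows reached into the gene's own annotated exons, and those of Bmpr2, Acvr1 and Id3 lay wholly within them. These 41 windows had a median GC content of 66.4%, compared with 52.4% for all windows. Tgfb3, Bmp2, Bmp1, Tgfbr3, Acvrl1, Nog, Fst, Smad2, Smad4, Smad7, Skil, Pmepa1 and Id1 had no entry. A match is a description of these letters, not a bound site.

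Latent TGF-beta binding proteins divided. Ltbp1, which tethers latent TGF-beta to fibronectin and microfibrils, had Ly6C+ values of 47.6, 39.1 and 66.5 and Ly6C− values of 7.87, 9.36 and 9.18, a ratio of 5.80 (log2 fold change 2.38, SE 0.28; limma adjusted p = 0.000156). Ltbp4, an elastic-fibre protein that also carries latent TGF-beta1, was at 966, 877 and 807 against 194, 299 and 131 (2.16, SE 0.26; adjusted p = 0.000158). The values of Ltbp3 were 464, 507 and 463 against 313, 277 and 211 (0.85, SE 0.18; adjusted p = 0.00693). None of these 3 genes had overlapping groups.

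Ltbp2, the family member that does not bind latent TGF-beta, was called the other way, at 165, 316 and 120 against 411, 302 and 472 (log2 fold change −1.07, SE 0.31; limma adjusted p = 0.0366). Its groups overlapped, and the call ended without Ly6C+ replicates 1 or 3 or Ly6C− replicates 1 or 3 (adjusted p = 0.135, 0.123, 0.0587 and 0.0827), and in limma without a mean-variance trend (0.108). Bmp1, a metalloprotease that matures procollagen and cleaves the antagonist chordin, was at 3126, 3004 and 2089 against 2825, 2772 and 1245 and did not pass (0.34, SE 0.30; adjusted p = 0.524). Replicate 3 was the lowest of its group on both sides for Bmp1.

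Among the 42 tested members, the 2 largest log2 fold changes in limma were in antagonists, and they were opposite. Wfikkn2, whose secreted product sequesters myostatin and GDF11, was at 231, 110.5 and 151 in Ly6C+ libraries (722 reads) and at 2.95, 1.70 and 2.62 in Ly6C− libraries (7 reads). The log2 fold change was 5.55 (SE 0.32; limma adjusted p = 1.27e-06). Grem1 (chromosome 2, 113746164 to 113758646, minus strand), which encodes the BMP antagonist gremlin 1, was at 6.71, 4.51 and 2.32 (20 reads) against 65.0, 61.3 and 207 (296 reads), 24.6-fold higher in Ly6C− pCAFs (−4.19, SE 0.47; adjusted p = 0.00011). Its Ly6C− values were uneven, and without Ly6C− replicate 3 the ratio was 14.0. For both genes the groups lay far apart and all 21 alternatives gave the same call.

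Follistatin-related genes were not of 1 kind. Fstl3, which binds activins, was lower in Ly6C+ pCAFs, at 176, 289 and 151 against 597, 465 and 573 (log2 fold change −1.45, SE 0.23; limma adjusted p = 0.00131). Fst, follistatin itself, the main activin trap, was at 75.0, 89.4 and 84.2 against 92.5, 163 and 199, lower without overlap but short of the threshold (−0.80, SE 0.26; adjusted p = 0.0623). It passed in 8 of 21 alternatives, among them edgeR (0.0311) and DESeq2 (0.0176), with an adjusted p from 0.00288 (leaving out Ly6C− replicate 1) to 0.207 (leaving out Ly6C− replicate 2). Fstl1, a more distant relative and a secreted glycoprotein of mesenchymal cells, was higher in Ly6C+ pCAFs at 8272, 6195 and 5453 against 2972, 3529.5 and 2882 (1.07, SE 0.20; adjusted p = 0.00305), but not after quantile normalization (0.53; adjusted p = 0.0778).

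Nbl1, a BMP antagonist of the DAN family to which gremlin also belongs, was 2.32-fold higher in Ly6C+ pCAFs (2946, 2114 and 1724 against 934, 1047 and 943; log2 fold change 1.18, SE 0.20; limma adjusted p = 0.0019). Gremlin and Nbl1, relatives within 1 family, were thus called in opposite directions. The chordin gene Chrd, at 65.3, 39.1 and 28.6 against 36.4, 25.5 and 17.0, and Twsg1, which modulates chordin, overlapped between groups and did not pass (0.71 and 0.27; adjusted p = 0.213 and 0.569). The noggin gene Nog was near the detection limit in all libraries (1.97 to 11.9) and did not pass.

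**Figure D3:**
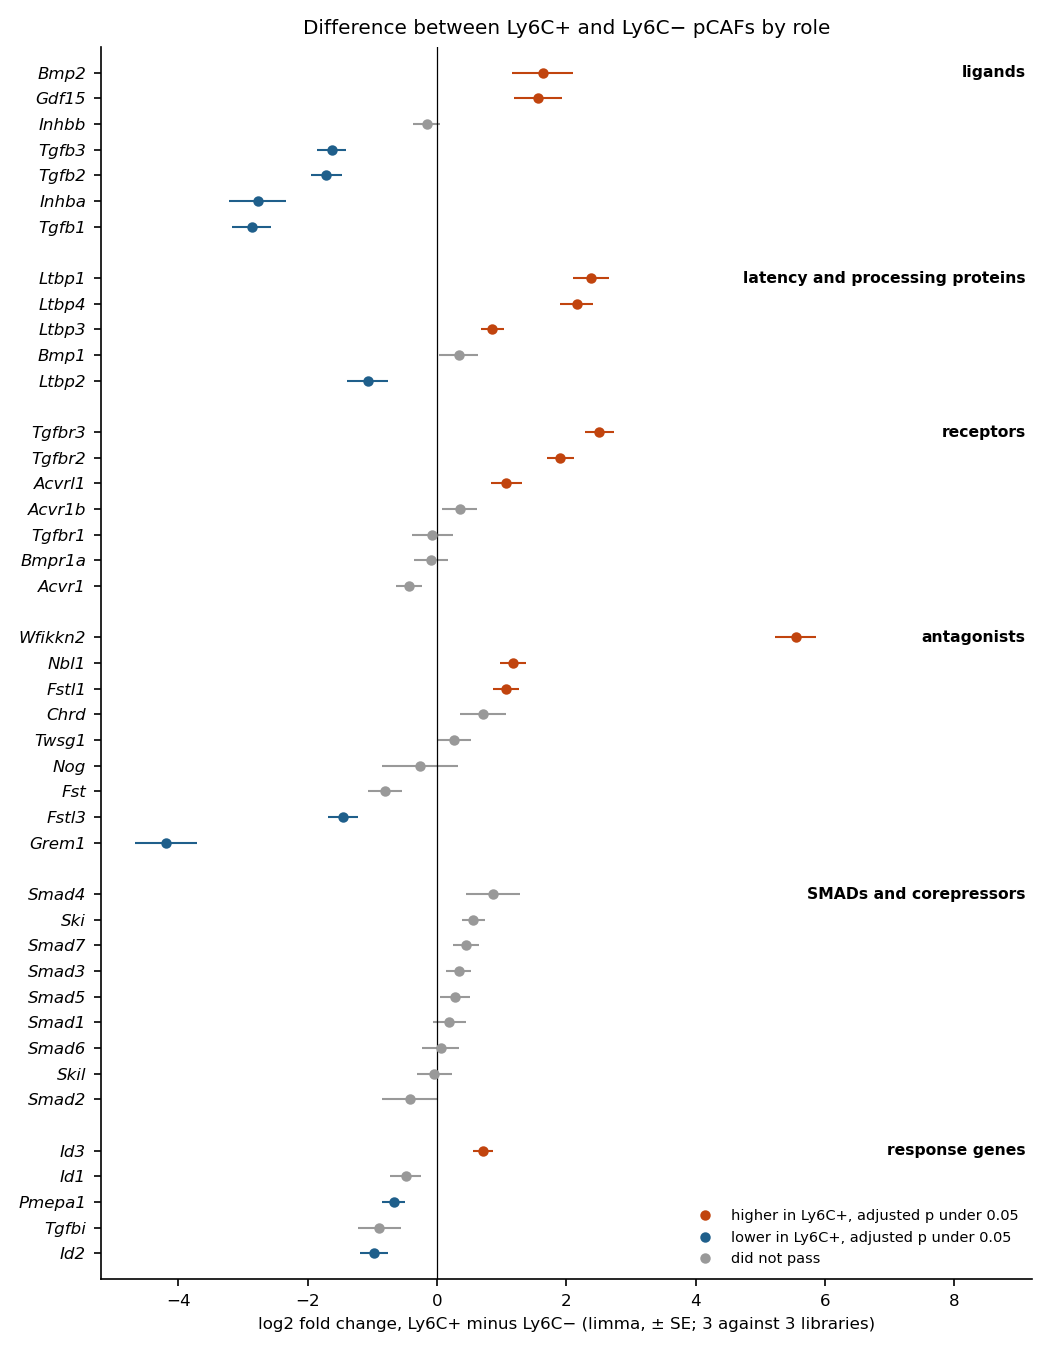
Log2 fold change (Ly6C+ minus Ly6C−, limma, ± SE) of the 42 tested genes by role. Orange points were called higher, blue lower, and grey did not pass. Wfikkn2 at 5.55 and Grem1 at −4.19 are the extremes, and the 9 SMADs and corepressors lie between −0.42 and 0.87 with none called.

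SMADs carry the signal from the receptors to the nucleus, and SKI proteins repress their targets. None of the 9 genes was called by limma, edgeR or DESeq2, while limma called 17.1% of all tested genes. At an unadjusted p under 0.05 limma gave 2 (Smad7 and Ski, both higher in Ly6C+ pCAFs). The share of all genes at that unadjusted threshold was not counted. The receptor-activated Smad3 was at 90.9, 81.2 and 97.4 against 79.7, 72.3 and 61.6 (log2 fold change 0.33, SE 0.19; limma adjusted p = 0.289). Those groups did not overlap, with the lowest Ly6C+ value just above the highest Ly6C− value. Smad2, at 5.41 to 15.7 over all libraries, and the shared partner Smad4, at 3.93 to 17.0, had few reads (30 and 29 for Smad2, 65 and 27 for Smad4) and SEs of 0.43 and 0.42. The BMP mediators Smad1 and Smad5 had differences of 0.19 and 0.28 with overlapping groups.

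Inhibitory SMADs are themselves induced by the pathway. Smad7, which blocks TGF-beta receptors, was at 220, 249.6 and 317 against 193, 157 and 225 (log2 fold change 0.45, SE 0.20; limma adjusted p = 0.166), and Smad6, which favours BMP receptors, at 25.0, 36.1 and 36.3 against 42.3, 23.8 and 28.8 (0.06, SE 0.28). The corepressor gene Ski was higher in each Ly6C+ library, at 112, 101 and 97.4 against 74.8, 66.4 and 68.2, and fell just short (0.56, SE 0.18; adjusted p = 0.0528). Over the alternatives its adjusted p ran from 0.0319 to 0.186 and it passed in 3 of 21. Its relative Skil, which TGF-beta induces as RNA and degrades as protein, overlapped between groups (28.1, 36.1 and 49.5 against 46.3, 28.9 and 40.6).

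Response genes were mixed in sign. Pmepa1, a TGF-beta-induced feedback inhibitor of SMAD phosphorylation, was lower in Ly6C+ pCAFs at 215, 276 and 207 against 324, 378 and 405 (log2 fold change −0.67, SE 0.18; limma adjusted p = 0.023). Without Ly6C+ replicates 1 or 3 or Ly6C− replicates 2 or 3 its call ended (adjusted p = 0.0833, 0.0751, 0.0946 and 0.0561), as it did in limma without a mean-variance trend (0.0792). Tgfbi, a matrix protein named for its induction by TGF-beta, was at 58.6, 98.5 and 85.8 against 167, 225 and 85.2 and did not pass (−0.89, SE 0.33; adjusted p = 0.0935). Ly6C− replicate 3 was at the Ly6C+ level there, and without it the gene passed (−1.28; adjusted p = 0.00446). It passed in 7 of 21 alternatives, among them edgeR (0.0499) and DESeq2 (0.0179), with an adjusted p of up to 0.338.

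The Id genes encode dominant-negative helix-loop-helix factors and are standard readouts of BMP signalling. Id2 was lower in Ly6C+ pCAFs, at 50.6, 51.1 and 43.3 against 99.4, 74.0 and 119 (log2 fold change −0.98, SE 0.22; limma adjusted p = 0.0105). Id3 was higher, at 1829, 2296 and 1926 against 1188, 1262 and 1217 (0.72, SE 0.16; adjusted p = 0.00892), though not after quantile normalization (0.47; adjusted p = 0.0559). Id1 was at 52.5, 74.4 and 41.0 against 87.6, 68.1 and 74.7 and did not pass (−0.48, SE 0.24; adjusted p = 0.223). The groups of Id2 and Id3 did not overlap, and the 2 genes were called in opposite directions in the same libraries. Immediate early genes (17 of 23, against 9.41% of all tested genes) were higher in the same Ly6C+ libraries as Id3, and their part was not tested.

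Nox4, an NADPH oxidase that TGF-beta is known to induce in fibroblasts, had 41 reads in Ly6C+ and 1 read in Ly6C− pCAFs. Its values were 12.8, 9.02 and 6.18 against 0, 0 and 1.31, a ratio of group means of 21.4. The ratio of summed reads, each group's divided by the sum of its libraries' size factors, was 28.4, with an exact 95% interval for counting error of 4.82 to 1149. With a mean of 4.89 it was below the level tested, and without that filter it passed (log2 fold change 2.92; limma adjusted p = 0.00216).

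Genes of the pathway outside the 47 were counted from separate lists. For comparison, limma called 17.1% of all 9646 genes tested, 9.41% higher and 7.66% lower in Ly6C+ pCAFs. No such share was counted at an unadjusted p under 0.05. Of 6 further ligand genes tested, 1 was called: Bmp6 was at 38.4, 36.8 and 51.0 against 5.91, 5.95 and 2.62 (log2 fold change 2.93, SE 0.35; limma adjusted p = 0.00016). None of 4 further receptors and co-receptors was called by limma, edgeR or DESeq2 (2 at an unadjusted p under 0.05, Rgma and Vasn). Among 22 extracellular regulators 6 were higher and 7 lower. Pcsk6, a proprotein convertase that processes family ligands, was at 226, 111 and 196 against 7.87, 4.25 and 11.8, and Htra3, a secreted protease, was 10.2-fold higher in Ly6C+ pCAFs. Dcn, a proteoglycan that binds TGF-beta, was 3.99-fold higher there, whereas the integrin subunit gene Itgb1 was 2.61-fold higher in Ly6C− pCAFs.

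None of 12 further intracellular regulators, such as the SMAD ubiquitin ligases Smurf1 and Smurf2, was called by limma, edgeR or DESeq2 (3 at an unadjusted p under 0.05). The share of all genes called by limma was 17.1%. Genes named as TGF-beta targets were 4 higher and 7 lower of 26, against 9.41% higher and 7.66% lower of all genes. Their median log2 fold change was −0.14, and Tagln, Acta2, Hbegf and Lrrc15 had the smallest p-values. Cdkn2b, Il11 and Timp1 were also lower in Ly6C+ pCAFs, and the 4 called higher were Angptl4, Itga11, Junb and Lox. Junb is also among the immediate early genes called higher, and its call ended without Ly6C− replicate 2 (limma adjusted p = 0.0562). The Lox call ended without any 1 Ly6C+ library (limma adjusted p = 0.0829, 0.162 and 0.0836) or without Ly6C− replicates 1 or 2 (0.109 and 0.130). In Ly6C− pCAFs the contractile genes Tagln and Acta2 were 17.9-fold and 14.1-fold higher, the growth factor gene Hbegf 5.72-fold and the fibroblast membrane protein gene Lrrc15 5.88-fold. Tagln and Acta2 are also expressed by pericytes and smooth muscle, of whose 8 tested markers 6 were lower and 1 (Kcnj8) higher in Ly6C+ pCAFs, and their part was not tested. Of 7 genes named as BMP targets 4 were lower and 0 higher by limma, edgeR and DESeq2 alike, beside the same shares of all genes. At an unadjusted p under 0.05 limma gave 5 lower and 0 higher, and the median was −1.23. Heyl, at 6.10, 6.01 and 3.86 against 47.2, 58.7 and 83.9, had the largest difference, and Hey1, Msx1 and Runx2 were the other three. Heyl and Hey1 also respond to Notch signalling, and Heyl is known from mural cells, whose markers were lower in the same libraries. The part of those cells was not tested.

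**Figure D4:**
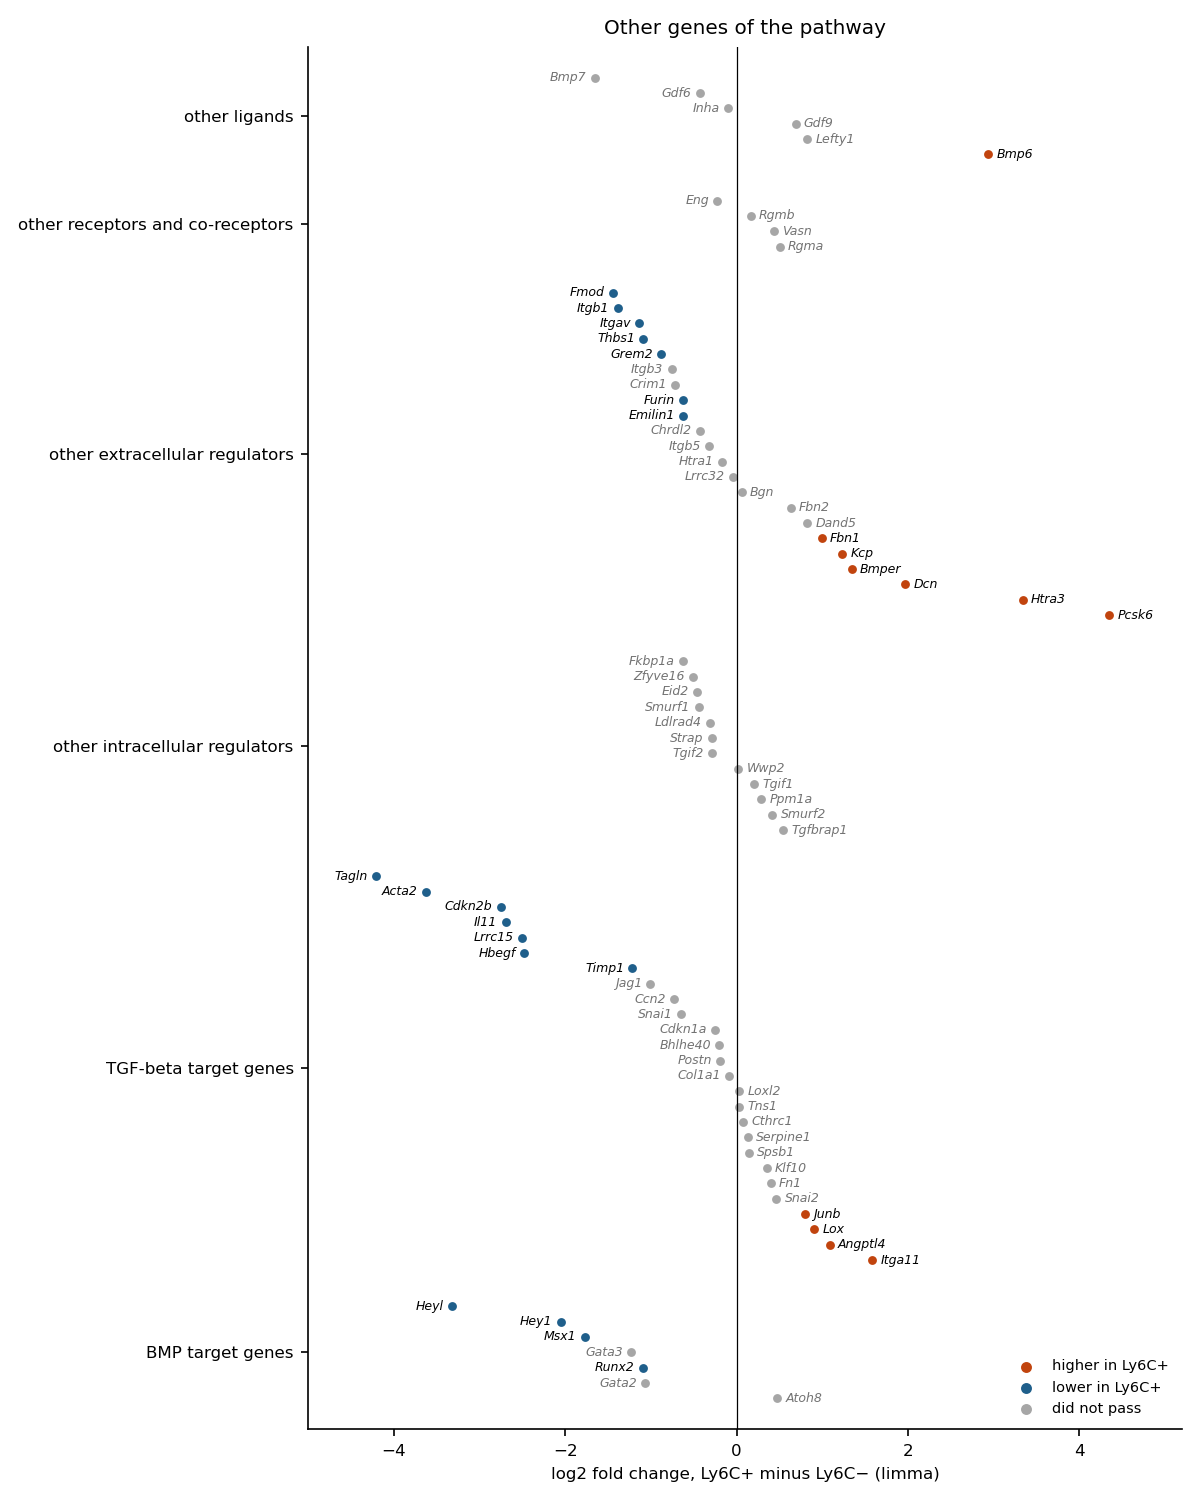
Log2 fold change (Ly6C+ minus Ly6C−, limma) of the tested genes of 6 further pathway lists, 1 point per gene. Orange was called higher, blue lower, and grey did not pass. No receptor or intracellular regulator was called, and extracellular regulators were called in both directions.

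Exons of 13 members overlap another annotated gene: Tgfb2, Tgfb3, Bmp4, Ltbp2, Ltbp3, Bmpr1a, Acvr2a, Acvrl1, Chrd, Fst and Fstl3 on the opposite strand, and Tgfbr3 and Smad5 on the same strand. How strand was handled is not given in the sources used here, so reads of these partners could not be told apart from those of the members. The exon overlaps come from GENCODE M21 on mm10, which held all 47 symbols.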

How the data were processed

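RNA of 6 sorted libraries was sequenced from the 3′ end. Per the submitters' processing notes, reads were handled with bcl2fastq, with STAR (2.4.2a) as aligner, with HTSeq, and with the mm10 build. The deposited values are signal values, gene counts divided by 1 size factor per library by the authors. The tool for the factors, the annotation, the strand setting and any gene filter are not given in the sources used here. In each library 100% of values were whole multiples of the smallest one (tolerance 0.001), so reads were recovered.

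A pseudocount of 1 preceded the log2 step. The 9646 genes whose mean value reached 5 were tested with limma 3.58.1 (R 4.3.3, mean-variance trend, no block, Benjamini-Hochberg). edgeR 4.0.16 on recovered reads called 1721 genes and DESeq2 1.42.0 called 1549, against 1647. The steps were tested on simulated data. The members, lists and tests were chosen with earlier results of these data known. Every member is named or counted by role, and up to 4 called genes with the smallest p are named from each other list. From the TGF-beta targets the other called genes are named too. A comparison of ligand proteins that had been planned was not made, and 8 platelet and erythroid markers were not analysed here. Promoters came from RefSeq. Counting intervals cover counting error only, and the floor of 3 reads allows for it only in the group without reads. Tables and figures used Python 3.11.15.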

Additional observations from a re-analysis of the deposited data

How the results depend on the processing

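All genes called numbered 1121 to 1728 and members called 18 to 21 when 1 library was left out, against 1647 and 21. No setting moved either count by more than 1.5 times, and 15 of the 21 called members passed in every alternative. Among the 42 tested members, direction changed in 8, none of which had passed. Of the members not tested, Acvr2a had a ratio of group means of 1.17, which became 0.689 when Ly6C+ replicate 2 was left out and 0.956 when Ly6C− replicate 1 was. Bmp1 was at −0.059 after quantile normalization, Smad6 at −0.13 with equal library totals, and Skil at 0.087 after thinning to equal depth, an alternative chosen after seeing the data. Leaving out 1 library gave log2 fold changes of −0.29 to 0.0088 for Inhbb, −0.053 to 0.54 for Bmp1, −0.28 to 0.34 for Tgfbr1, −0.28 to 0.21 for Bmpr1a, −0.84 to 0.22 for Nog, −0.019 to 0.30 for Smad1, −0.12 to 0.28 for Smad6 and −0.25 to 0.15 for Skil. The cause was not tested.

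No label says what libraries with the same replicate number share, so the numbers were not taken as pairs. Such libraries deviated together weakly (r = 0.129, 0.052 and 0.167), but each correlated best with its own number. These values do not settle whether the libraries were paired. With the replicate block 2088 genes (limma) and 2113 (edgeR) were called, and 25 members in each. A mean of at least 20 gave no value for Bmp2, Nog, Smad2 and Smad4. Depth limits Bmp4, Gdf10, Bmpr2, Acvr2a and Nox4, which rest on at most 41 reads per group.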
